A study of Mus musculus with 8 samples.

Results

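The genes described here build caveolae, the flask-shaped pits of the plasma membrane, and the diaphragm that closes caveolae and fenestrae in capillary endothelium. They were taken as every probe set annotated to exactly 1 gene symbol among Cav1, Cav2, Plvap, Ehd2, Ehd4 and Pacsin2. This gave 10 probe sets for 5 of the 6 genes, of 18193 genes with a named probe set on the array, and no probe set was named Pacsin2 in the annotation used here, so that gene was not analysed. Cav1, Plvap and Ehd4 had 1 probe set each, Cav2 had 2 and Ehd2 had 5. All 5 genes, and 9 of the 10 probe sets, passed the filter on dim signals.

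Lymphatic endothelial cells (LEC) and blood vascular endothelial cells (BEC) were sorted from the colon of the same 4 normal, healthy C57BL/6J mice aged 8 weeks, 3 female and 1 male, and each sorted population was measured on 1 array. The 4 pairs were picked by the submitters for the quality of their RNA and amplified material. Antibodies to CD31, podoplanin and CD45.2 were used in the sort, and no treatment or genetic change is named in the labels. Replicates 1 to 4 are the mice. The amplified RNA of a sorted population is a bulk sample, so fewer cells of a type and less RNA per cell cannot be told apart.

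Caveolae are abundant in endothelium, where they carry solutes across the cell, buffer membrane tension and gather signalling proteins. Caveolins, inserted in the membrane as oligomers, and cavins, which coat them from the cytosol, shape the pit. EHD ATPases and the F-BAR proteins of the PACSIN family act at its neck, and EHD2 in particular holds caveolae at the surface. PLVAP forms the radial fibrils of the thin diaphragm across caveolae, fenestrae and transendothelial channels, and fenestrated capillaries of the gut mucosa are known for it.

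Of these genes, Plvap and Ehd4 were lower in LEC, while Cav1, Cav2 and Ehd2 were bright in both cell types and did not pass the test. Plvap was at least 39.1-fold lower in LEC and Ehd4 9.33-fold lower. The 3 others differed by 1.20-fold to 1.53-fold on the deposited scale. The 2 genes called lower of the 5 tested stand beside 2.31% of all 13259 genes called lower and 4.07% called in either direction (limma, adjusted p under 0.05). The values of LEC and BEC did not overlap at the same 2 genes, and at 10.4% of all genes tested, 5.19% with LEC the lower. In a fit of 28840 probe sets, 2 of the 9 tested probe sets of these genes were called lower, 1 of Plvap and 1 of Ehd4, beside 1.84% of all probe sets called lower and 3.31% called in either direction.

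**Figure D1:**
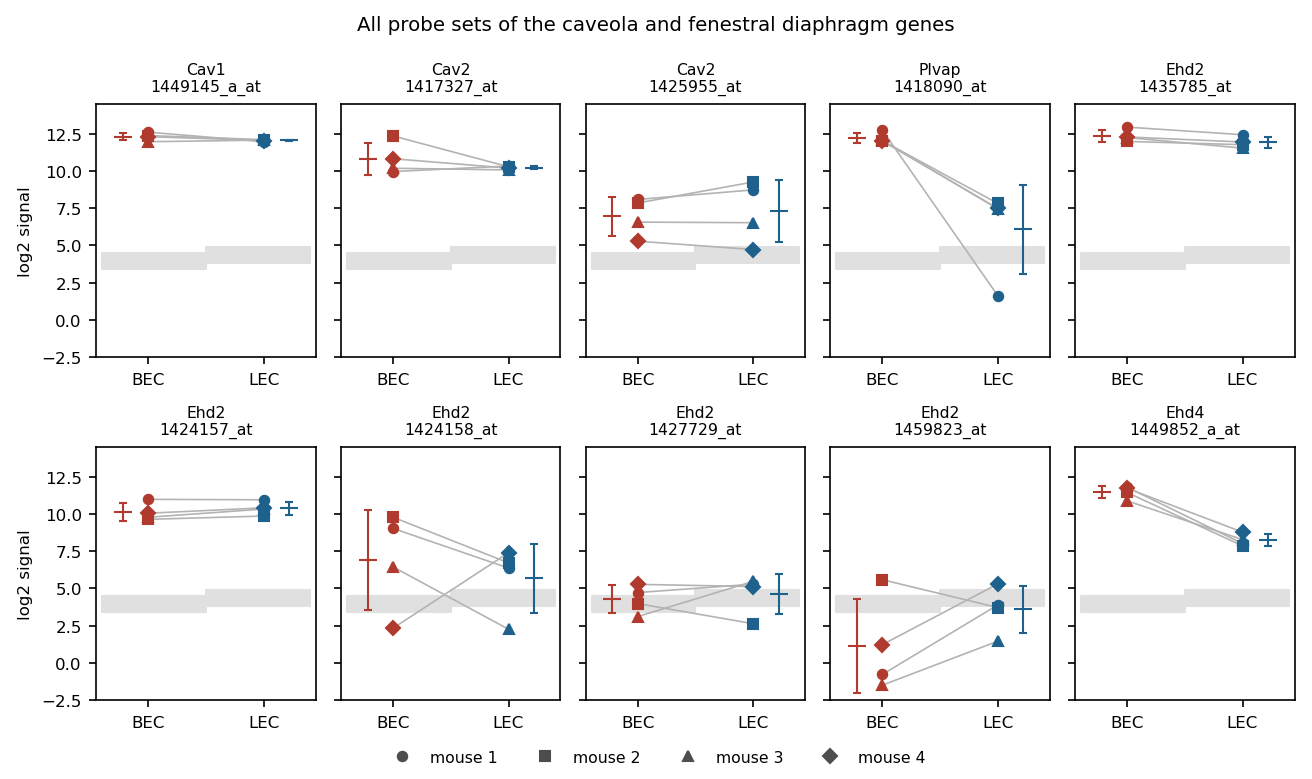
Log2 signal (vertical axis) of each of the 10 probe sets of Cav1, Cav2, Plvap, Ehd2 and Ehd4 in BEC (red) and LEC (blue). Each symbol is 1 array, grey lines join the 2 arrays of a mouse, horizontal marks with bars are the mean and SD of 4 arrays, and grey bands span the background levels of the 4 arrays of a group. Plvap and Ehd4 are lower in LEC in all 4 mice, whereas the bright probe sets of Cav1, Cav2 and Ehd2 have overlapping groups.

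The sequences just upstream of the start site are shown for the 4 genes that the RefSeq promoter table (build GRCm38.p6) holds, because 1 of these genes, Ehd4, differed between the cell types and the other 3 were not called. Each is the 250 bases before the annotated start, 5′ to 3′ on the gene's own strand, at chr6:17306085-17306334 for Cav1 (plus strand), chr6:17280935-17281184 for Cav2 (plus strand), chr7:15967536-15967785 for Ehd2 (minus strand) and chr2:120154576-120154825 for Ehd4 (minus strand). Cav1 has a further start in the table, which is not shown. Capitals mark the CCAAT box (CCAAT, or ATTGG on the other strand) and the GC box bound by SP factors (GGGCGG, or CCGCCC on the other strand).
Cav1: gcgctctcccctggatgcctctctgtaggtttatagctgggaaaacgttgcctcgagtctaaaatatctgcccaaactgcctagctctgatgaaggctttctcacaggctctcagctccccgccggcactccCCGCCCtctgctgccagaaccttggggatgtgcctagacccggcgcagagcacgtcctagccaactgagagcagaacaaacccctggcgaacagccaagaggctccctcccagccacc
Cav2: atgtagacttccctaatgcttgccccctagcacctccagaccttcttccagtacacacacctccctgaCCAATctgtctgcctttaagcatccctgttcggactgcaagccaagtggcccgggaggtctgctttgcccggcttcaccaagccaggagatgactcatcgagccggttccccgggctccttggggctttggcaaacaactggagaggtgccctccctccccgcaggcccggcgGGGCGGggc
Ehd2: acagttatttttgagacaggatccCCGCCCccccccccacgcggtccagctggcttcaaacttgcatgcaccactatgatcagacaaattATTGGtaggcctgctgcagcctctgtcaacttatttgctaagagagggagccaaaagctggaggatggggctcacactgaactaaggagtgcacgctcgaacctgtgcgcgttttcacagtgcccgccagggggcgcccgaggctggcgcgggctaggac
Ehd4: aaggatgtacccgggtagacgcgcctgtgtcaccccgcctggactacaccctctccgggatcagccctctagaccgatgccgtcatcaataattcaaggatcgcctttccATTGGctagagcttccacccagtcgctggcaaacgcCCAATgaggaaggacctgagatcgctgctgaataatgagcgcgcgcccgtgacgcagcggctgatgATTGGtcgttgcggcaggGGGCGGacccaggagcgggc
Ehd4 holds 3 CCAAT boxes, Cav2 and Ehd2 hold 1 each, and Cav1 holds 0, where 33.8% of 32851 promoters in the table have at least 1 and 2.79% at least 3. Each of the 4 sequences has 1 GC box, and 32.7% of all promoters have at least 1. The core of ETS factor sites (GGAA, or TTCC on the other strand, which can overlap the end of either box) occurs 3 times in Ehd4, 3 times in Cav2, 1 time in Cav1 and 0 times in Ehd2. Of all promoters, 93.4% have at least 1 and 54.7% at least 3. These matches describe the letters in the window only. The motifs were chosen after the values of the genes were known. Cav2 and Cav1 are neighbours in the same orientation on chromosome 6, with 0 annotated genes lying between them.

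PLVAP, the diaphragm protein, gave the largest difference of the 5 genes on the log2 scale. Its probe set read 12.72, 12.01, 12.04 and 11.99 in BEC replicates 1 to 4 and 1.62, 7.81, 7.44 and 7.48 in LEC replicates 1 to 4. The BEC arrays were closely spaced and all above every LEC array, while LEC replicate 1 stood far below the other 3 LEC arrays. The group means were 12.19 ± 0.36 in BEC and 6.09 ± 2.98 in LEC (SD, n = 4 each), a difference of -6.10 ± 1.08 on the log2 scale (standard error of the fit; 95% confidence interval -8.42 to -3.79; limma, adjusted p = 0.00442), with all 4 mice in the same direction.

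LEC replicate 1 was the only LEC array on which Plvap lay under the background level, which was 4.88 there and 3.83 to 4.32 on the other 3 LEC arrays. The ratio is therefore given as at least 39.1-fold, with that value raised to the background level. Without LEC replicate 1 the difference was -4.62 (24.5-fold) with adjusted p = 7.38e-05, and LEC stood at a mean of 7.57. On LEC replicates 2 to 4 the Plvap signal was thus well above background although far under that of BEC. On the LEC arrays the means of 6 blood endothelial markers (Flt1, Vwf, Nrp1, Sox17, Aplnr and Notch4) lay between 3.32 and 4.28, against 10.43 to 11.25 in BEC with 2 or 3 of the 6 above background on each LEC array. The highest single value among them on LEC arrays was 6.76, of Nrp1 on replicate 4. The part of BEC RNA in the Plvap signal of LEC was not tested. On LEC replicate 1, 9593 tested genes were above background, the fewest of any array (10011 to 11701 on the others). Its 3′ Gapdh control probe set read 3.87 above the 5′ one, the widest gap of any array (1.14 to 3.62 on the others). For Actb that gap was -0.29, within the range of the others (-0.63 to 0.25). The part of RNA quality in the low Plvap value of LEC replicate 1 was not tested.

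Caveolin 1, the main structural protein of endothelial caveolae, was bright on every array. Cav1 read 12.59, 12.36, 11.95 and 12.29 in BEC and 11.95, 12.09, 12.06 and 12.03 in LEC, in the order of the mice. The LEC values were closely spaced, at 12.03 ± 0.06 (mean ± SD, n = 4), and the BEC values, at 12.30 ± 0.27, ranged over and above them. The difference was -0.26 ± 0.22 (95% confidence interval -0.73 to 0.20; limma, adjusted p = 0.657), with LEC the lower in 3 of 4 mice. The interval leaves room for a decrease of up to 0.73 on the log2 scale and excludes a difference the size of that of Plvap or Ehd4.

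Caveolin 2 forms hetero-oligomers with caveolin 1 and depends on it for transport to the membrane. Its brighter probe set (1417327_at) read 9.95, 12.34, 10.17 and 10.81 in BEC and 10.32, 10.27, 10.06 and 10.18 in LEC. BEC replicate 2 stood above the other 7 arrays, which lay between 9.95 and 10.81. The difference was -0.61 ± 0.46 (95% confidence interval -1.61 to 0.39; limma, adjusted p = 0.628), and -0.10 without BEC replicate 2 (adjusted p = 0.951). The dimmer probe set (1425955_at) read 8.08, 7.84, 6.56 and 5.28 in BEC and 8.72, 9.25, 6.52 and 4.72 in LEC. On it mice 1 and 2 were the brighter and mouse 4 the dimmest in both cell types, and the difference between cell types had the opposite sign, 0.37 ± 0.97, and was not called (limma over 28840 probe sets, adjusted p = 0.925).

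EHD2 and EHD4 are close relatives in a family of membrane-remodelling ATPases, and their transcripts differed in pattern here. EHD2 sits at the neck of caveolae. Its brightest probe set (1435785_at) read 12.93, 11.97, 12.23 and 12.27 in BEC and 12.42, 11.75, 11.52 and 11.93 in LEC. LEC was the lower of the pair in each mouse, but the groups overlapped, and the difference of -0.44 ± 0.27 was not called (95% confidence interval -1.03 to 0.14; limma, adjusted p = 0.515).

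The other Ehd2 probe sets differed in sign among themselves, and none of those tested was called. Probe set 1424157_at read between 9.63 and 10.97 in BEC and between 9.85 and 10.94 in LEC, a difference of 0.28 ± 0.40 (limma over probe sets, adjusted p = 0.844). Probe set 1424158_at ranged from 2.33 to 9.77 in BEC and from 2.26 to 7.39 in LEC, with a difference of -1.21 ± 1.48 (adjusted p = 0.806), and was under background on 1 array of each group. The 2 remaining probe sets were dim: 1427729_at lay between 2.63 and 5.47 over all 8 arrays (difference 0.36 ± 0.92, adjusted p = 0.921), and 1459823_at, which did not pass the filter, was above background on 2 of 8 arrays and ranged from -1.49 to 5.58. Of the 5 probe sets, 2 were above background on all 8 arrays, and on these the group means of LEC and BEC differed by -0.44 and 0.28.

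EHD4, known for traffic through early endosomes and also found with EHD1 and EHD2 at endothelial caveolae, was lower in LEC. Ehd4 read 11.78, 11.43, 10.87 and 11.71 in BEC and 8.01, 7.85, 8.27 and 8.77 in LEC. Every BEC array was at least 2 units above every LEC array, and all 8 values were above background. The means were 11.45 ± 0.41 and 8.23 ± 0.40 (SD, n = 4 each), a difference of -3.22 ± 0.38 (95% confidence interval -4.05 to -2.40; limma, adjusted p = 2.23e-04). By mouse the difference was -3.77, -3.58, -2.61 and -2.93.

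Differences between genes within an array are not changed by a constant factor per array. The change of Ehd4 from BEC to LEC was 2.78 ± 0.68 log2 units further down than that of Ehd2 (mean ± SD over 4 mice, 1.89 to 3.36), and the change of Plvap was further down than that of Cav1 by 3.93, 4.71 and 4.25 units in mice 2 to 4 and by at least 7.20 units in mouse 1, where Plvap in LEC was under background and was raised to it. These are given as descriptions with no test. The scaling itself matters for the small differences: against a median difference over all genes of 0.08 as deposited, equal array medians moved that median to -0.20 and equal hybridisation controls to -0.31. Relative to the median gene the change of Cav1 was -0.34, that of Cav2 -0.69 and that of Ehd2 -0.52 as deposited.

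The machinery around these genes was read from a list of 12 further genes of the caveola coat and neck, of which 10 were tested. In this list 1 gene was called higher and 0 lower in LEC, and 9 were not called, with a median difference of 0.43 against 0.08 over all genes tested. At an unadjusted p under 0.05, 4 were higher and 1 lower, where 6.98% of all genes tested were higher and 7.42% lower at that threshold; the unadjusted counts of the other lists are to be read against the same shares. With the mouse as a replicate block 2 were higher. The called gene was Ehd1, the EHD protein best known for endosomal recycling, which was higher in LEC. It read 11.71, 10.25, 11.45 and 11.13 in BEC and 12.70, 12.56, 12.66 and 12.14 in LEC, with no overlap, a difference of 1.38 ± 0.31 or 2.60-fold (limma, adjusted p = 0.0232).

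Other probe sets of Ehd1 gave larger differences in the same direction. Probe set 1448175_at read 6.09 to 7.21 in BEC and 9.88 to 11.01 in LEC (3.97 ± 0.49, limma over probe sets, adjusted p = 3.51e-04), and 1416011_x_at differed by 3.16 ± 0.53 (adjusted p = 0.00364). The fourth, 1416012_at, lay between 4.86 and 6.82 on all arrays and was not called (0.46 ± 0.67, adjusted p = 0.846). On the chosen probe set the call of Ehd1 did not hold with equal array medians (1.10, adjusted p = 0.121), with equal hybridisation controls (0.99, adjusted p = 0.241), without an intensity trend (1.38, adjusted p = 0.263), or on 7 arrays lacking 1 of BEC replicates 2 and 4 and LEC replicates 1, 2 and 3 (1.08 to 1.38, adjusted p = 0.0534 to 0.0657). It was not called without the arrays bright for epithelial genes or those bright for fibroblast genes, which are described with the marker genes (adjusted p = 0.162 and 0.0945). Within arrays the change of Ehd4 was 4.60 ± 0.96 units further down than that of Ehd1 (3.81 to 5.89 over 4 mice).

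**Figure D2:**
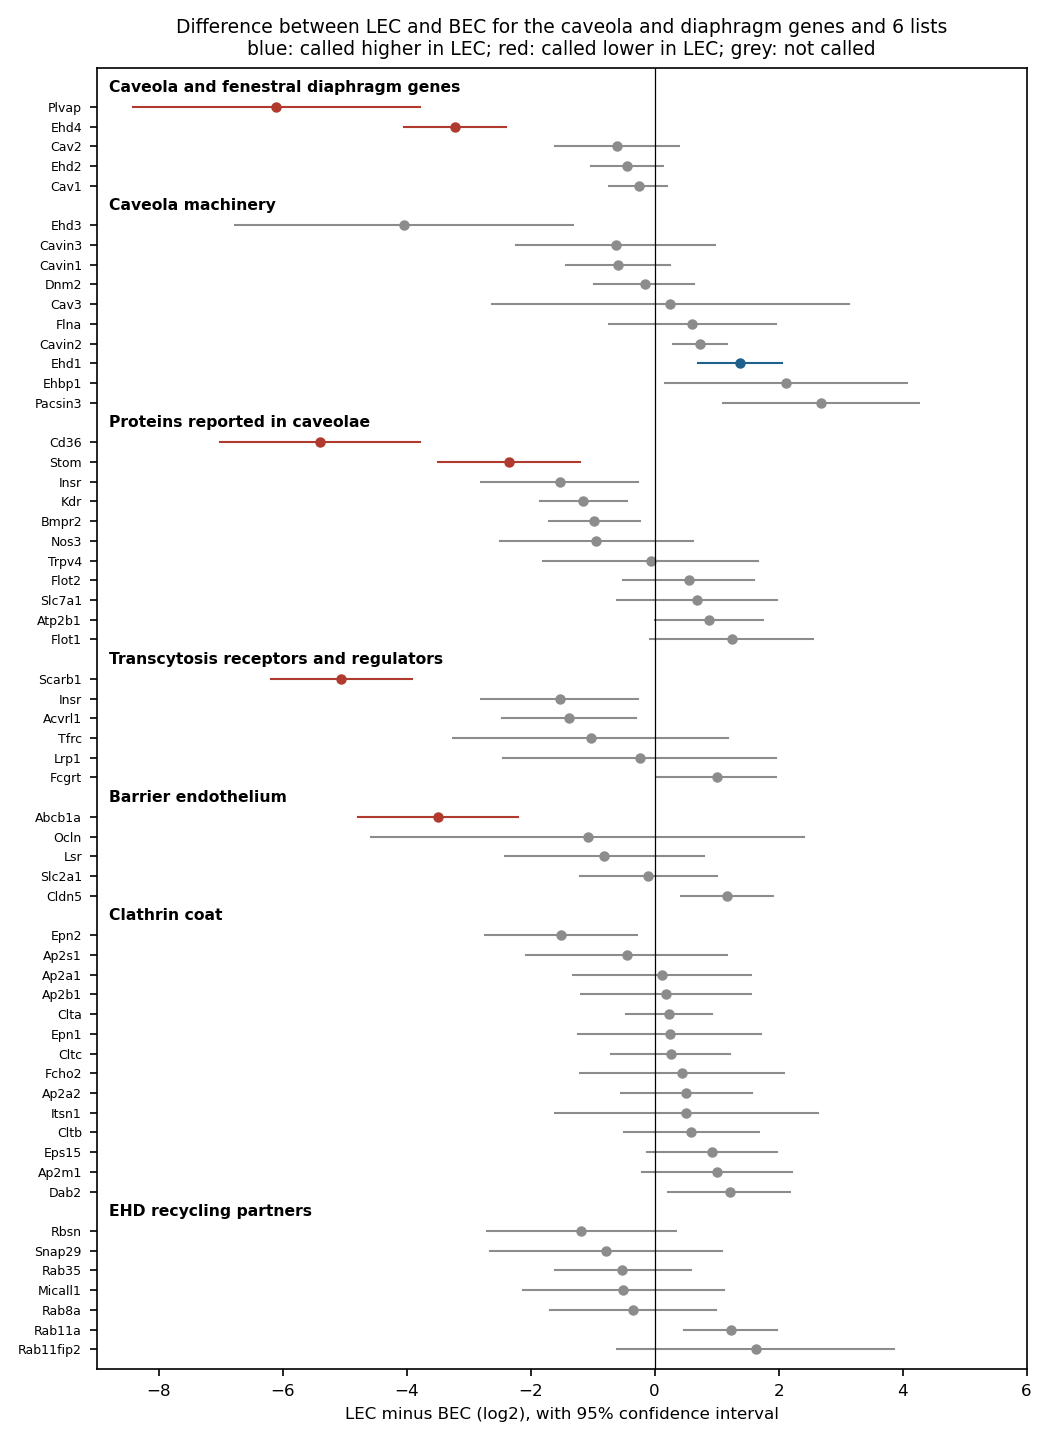
Difference LEC minus BEC on the log2 scale (horizontal axis) with its 95% confidence interval for Plvap, Ehd4, Cav2, Ehd2 and Cav1 and for the tested genes of 6 lists, 1 probe set per gene from 4 LEC and 4 BEC arrays. Red points were called lower and blue points higher in LEC (limma, adjusted p under 0.05), and grey points were not called. Plvap (-6.10), Cd36 (-5.40) and Scarb1 (-5.06) lie furthest towards BEC among the called genes, and Ehd1 (1.38) is the only blue point.

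Of the other EHD and PACSIN genes, Ehd3 and Pacsin3 are named here after their values were seen. Ehd3, a relative of Ehd1 also linked to endosome recycling, read 7.47, 6.02, 7.02 and 7.13 in BEC and 6.22, 4.83, 0.03 and 0.40 in LEC. LEC replicates 3 and 4 were below background, LEC was lower in 4 of 4 mice, and the gene was not called (at least 4.57-fold, limma, adjusted p = 0.111). Its second probe set read 6.22 to 6.71 in BEC and 1.11 to 4.31 in LEC, where all 4 values were under background. That probe set was called (-3.67 ± 0.86, limma over probe sets, adjusted p = 0.0310), at least 4.57-fold with values raised to background. Without LEC replicate 1 the gene was called too (-5.16, limma, adjusted p = 0.0236), at least 6.45-fold with values raised to background.

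Pacsin3, which encodes an F-BAR protein of the same family as PACSIN2, read 5.33, 4.08, 4.34 and 5.64 in BEC and 7.86, 7.20, 6.28 and 8.80 in LEC. The groups did not overlap and the difference was 2.68 ± 0.73 (6.42-fold, limma, adjusted p = 0.0608). It was called under 5 of 20 alternatives, among them a fit blocked on the mouse (adjusted p = 0.0494) and leaving out LEC replicate 3 (3.10, adjusted p = 0.0409). Both other probe sets were called higher in LEC, at 4.39 ± 1.04 and 4.93 ± 1.11 (limma over probe sets, adjusted p = 0.0323 and 0.0245). On these, 2 and 3 BEC arrays lay under background. With values raised to background the differences were 2.95 and 2.42, at least 7.73-fold and 5.34-fold. Pacsin1 did not pass the filter.

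Of the cavins, the coat proteins, Cavin1 and Cavin2 were bright in both cell types and Cavin3 was dimmer. Cavin1, without which caveolae do not form, read 12.04, 11.90, 10.93 and 11.16 in BEC and 11.80, 11.22, 10.46 and 10.21 in LEC (-0.59 ± 0.39, limma, adjusted p = 0.557). Cavin2, which binds phosphatidylserine and helps to shape the membrane, read 12.35, 11.86, 12.19 and 12.13 in BEC and 12.64, 12.95, 12.93 and 12.93 in LEC. Each LEC array lay above all BEC arrays, by a mean of 0.73 ± 0.20, and the gene was not called (limma, adjusted p = 0.0620). It was called without LEC replicate 1 (0.81, adjusted p = 0.0438) and with a stricter filter on dim genes (adjusted p = 0.0454), while equal hybridisation controls gave 0.34 (adjusted p = 0.773). On the other Cavin2 probe sets, 1416779_at and 1443832_s_at, the groups overlapped and neither was called. Their differences were 0.76 ± 0.41 and 0.57 ± 0.45 (limma over probe sets, adjusted p = 0.476 and 0.668). Cavin3, a signalling cavin, read between 5.98 and 9.57 in BEC and between 6.33 and 7.26 in LEC, with BEC replicate 1 the highest (-0.63 ± 0.74, adjusted p = 0.782, and 0.09 without BEC replicate 1). Cavin4, the muscle cavin, did not pass the filter, and Cav3, the muscle caveolin, lay at 1.03 to 5.87 over the 8 arrays (adjusted p = 0.963).

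**Figure D3:**
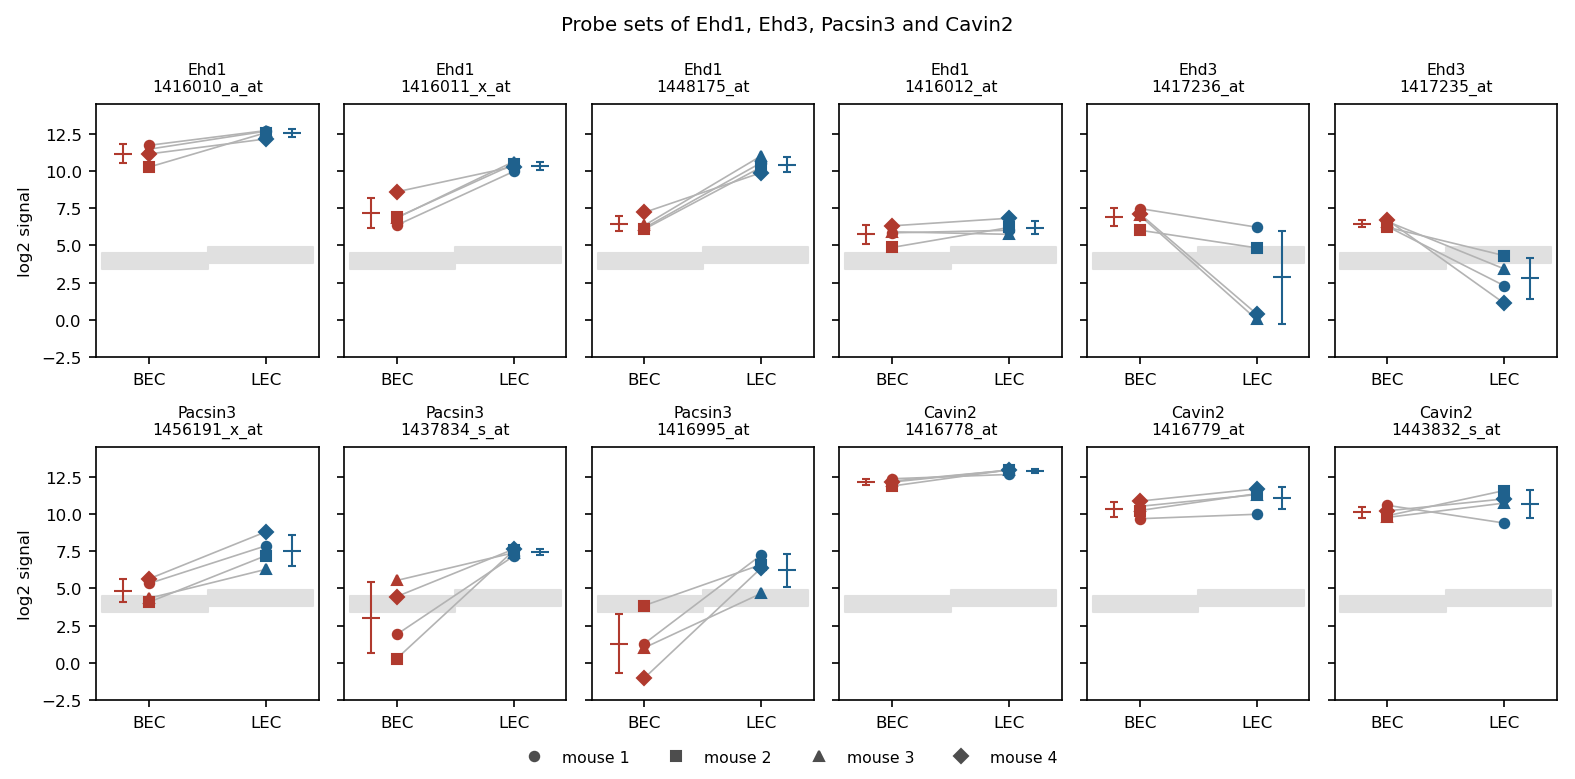
Log2 signal (vertical axis) of every probe set of Ehd1, Ehd3, Pacsin3 and Cavin2 in BEC (red) and LEC (blue), with 1 symbol per array, grey lines joining the 2 arrays of a mouse, marks and bars for the mean and SD of 4 arrays, and grey bands for the background levels. Of the 4 probe sets of Ehd1, 3 are higher in LEC, the fourth stays between 4.86 and 6.82, and both probe sets of Ehd3 are lower in LEC in all 4 mice.

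Among 12 genes whose proteins are reported in caveolae or lipid rafts, 11 were tested, 0 were higher and 2 lower in LEC (1 and 5 at an unadjusted p under 0.05, limma), with a median difference of -0.94. Cd36, the fatty acid translocase that reaches the surface with caveolae, read 13.13, 12.93, 12.49 and 12.75 in BEC and 4.82, 7.80, 7.37 and 9.72 in LEC. It was at least 41.7-fold lower in LEC (-5.40 ± 0.75, limma, adjusted p = 7.79e-04), and 23.1-fold without LEC replicate 1 and at least 70.5-fold without LEC replicate 4. Its 2 other probe sets were lower as well (-6.86 ± 0.59 and -7.23 ± 0.72). Stom, which encodes the raft protein stomatin, read 8.21 to 9.08 in BEC and 5.92 to 6.86 in LEC, 5.11-fold lower (-2.35 ± 0.53, limma, adjusted p = 0.0220). Of its 5 tested probe sets, 4 were called lower and the fifth missed the threshold (limma over probe sets, adjusted p = 0.0595). On the chosen probe set the call was lost on 7 arrays lacking 1 of BEC replicates 2, 3 and 4 and LEC replicates 2 and 4 (adjusted p = 0.0503 to 0.0823), with equal hybridisation controls (-2.74, adjusted p = 0.0506) and without the arrays bright for epithelial or for fibroblast genes (adjusted p = 0.279 and 0.135). The VEGF receptor gene Kdr, whose signal is needed to keep fenestrae, read 12.40, 12.13, 12.02 and 11.28 in BEC and 10.38, 11.27, 10.41 and 11.17 in LEC, and missed the threshold (-1.15 ± 0.33, adjusted p = 0.0735). Nos3, the endothelial nitric oxide synthase that caveolin 1 binds, was not called (-0.94 ± 0.72, adjusted p = 0.632).

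Among 8 receptors and regulators of transcytosis, 6 were tested, 0 were higher and 1 lower (1 and 3 at an unadjusted p under 0.05, limma), with a median difference of -1.21. Scarb1, a lipoprotein receptor, read 9.54, 10.30, 9.78 and 10.34 in BEC and 4.79, 5.35, 4.72 and 4.88 in LEC. The LEC values lay near background, and Scarb1 was at least 32.8-fold lower in LEC (-5.06 ± 0.53, limma, adjusted p = 9.73e-05), with the 2 other probe sets at -6.23 ± 0.77 and -6.27 ± 0.88. Acvrl1, an LDL-binding receptor kinase, and Fcgrt, the Fc receptor that carries IgG and albumin, were not called (-1.38 ± 0.50 and 1.00 ± 0.44, adjusted p = 0.190 and 0.317). A second Acvrl1 probe set, 1435825_at, read 9.34 to 10.23 in BEC and 6.97 to 8.25 in LEC. It was called lower in LEC (-2.03 ± 0.48, limma over probe sets, adjusted p = 0.031).

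The barrier list held 6 genes known from endothelium that makes little PLVAP, such as that of the brain. Of 5 tested, 0 were higher and 1 was lower in LEC (1 and 1 at an unadjusted p under 0.05, limma), with a median difference of -0.81. Abcb1a, the efflux pump P-glycoprotein, was 11.2-fold lower (8.81 to 10.52 in BEC and 5.25 to 7.40 in LEC; -3.49 ± 0.60, limma, adjusted p = 0.00355), and missed the threshold without the arrays bright for epithelial genes (adjusted p = 0.0892). Cldn5, the endothelial claudin, read 10.77, 9.44, 9.98 and 10.61 in BEC and 11.18, 11.36, 11.30 and 11.63 in LEC and was not called (1.16 ± 0.35, adjusted p = 0.0885). Mfsd2a, a lipid transporter known to hold back caveolar transcytosis, did not pass the filter.

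**Figure D4:**
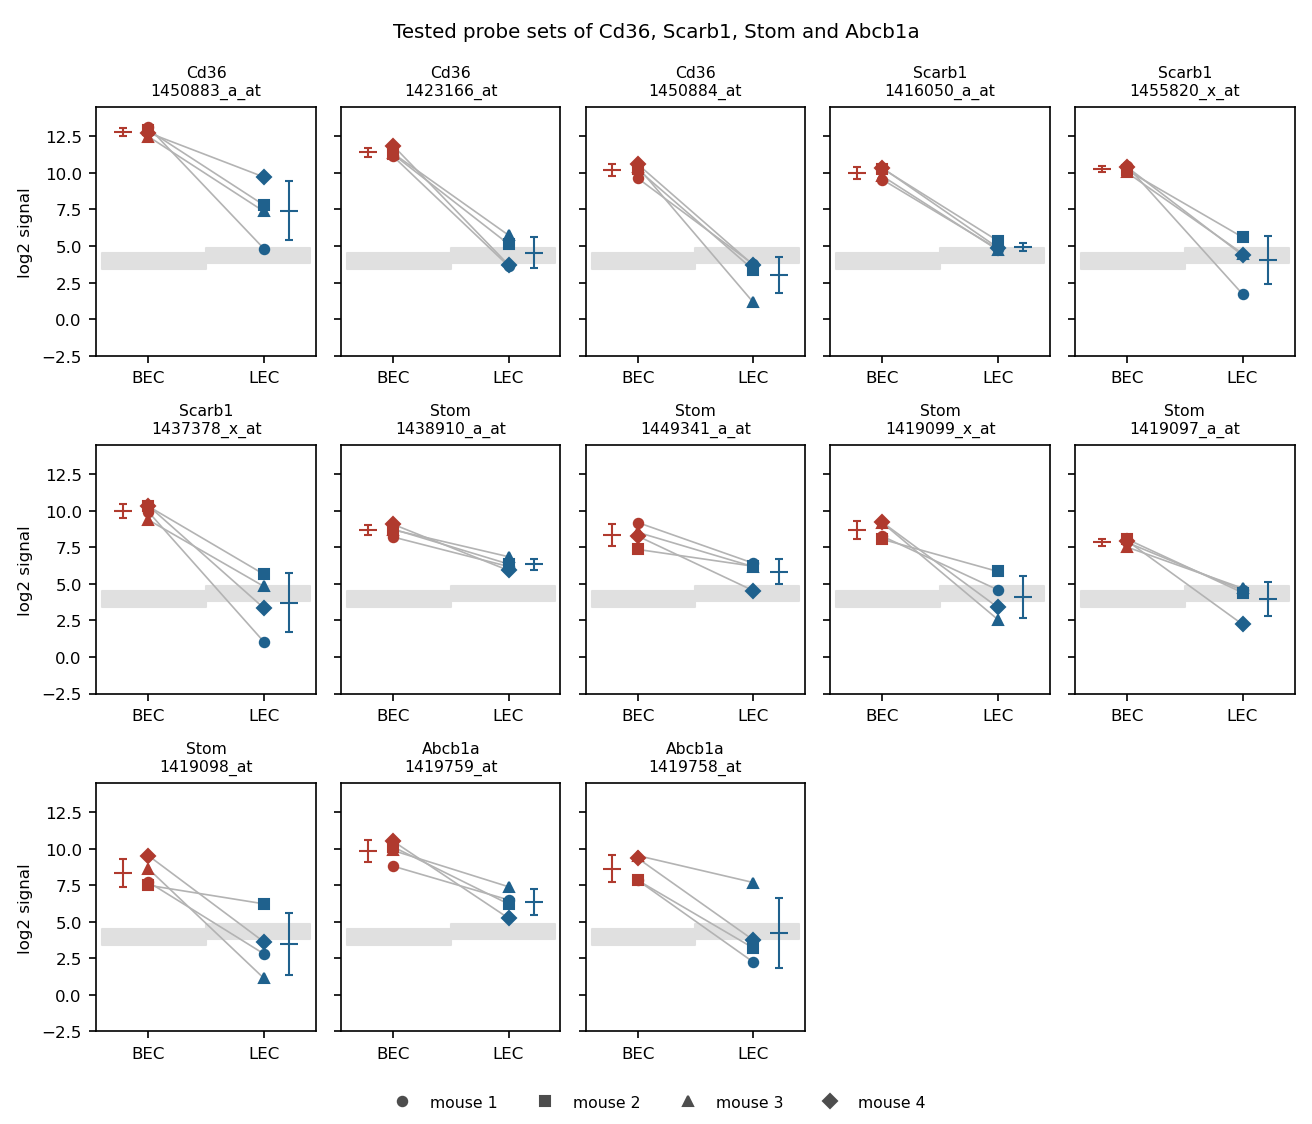
Log2 signal (vertical axis) of the tested probe sets of Cd36, Scarb1, Stom and Abcb1a in BEC (red) and LEC (blue), with 1 symbol per array, grey lines joining the 2 arrays of a mouse, marks and bars for the mean and SD of 4 arrays, and grey bands for the background levels. LEC lies below BEC in all 4 mice on each probe set shown, and several LEC values of each of the 4 genes lie in or under the background band.

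Clathrin-coated pits are the other main route of uptake at the plasma membrane. Of 14 tested genes of the clathrin coat and its adaptors, 0 were called in either direction (limma). Their median difference was 0.35, against 0.08 over all genes tested. Of the 14, 12 lay above 0, beside 7055 of all 13259 genes tested. At an unadjusted p under 0.05 (limma) there was 1 higher, Dab2, and 1 lower, Epn2. Values included 11.75 to 12.07 in BEC and 11.13 to 12.71 in LEC for Clta, a clathrin light chain, and 8.98 to 10.29 and 9.92 to 11.90 for Dab2, an adaptor (1.21 ± 0.46, adjusted p = 0.216). Of 7 partners of EHD proteins in endosome recycling, 0 were called (limma; median difference -0.51), and 1 was higher at an unadjusted p under 0.05. This was Rab11a, the recycling endosome GTPase, at 9.72 to 10.33 in BEC and 10.59 to 11.77 in LEC (1.23 ± 0.35, adjusted p = 0.0705). Over the 6 lists together 52 genes were tested, 1 was higher and 4 were lower, beside 1.76% and 2.31% of all genes, and their median difference was 0.03.

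The genes of most similar pattern were taken by the root mean square difference over the 8 arrays after centring each gene on its own mean. For Ehd4 they were Cd34 (0.32 log2 units) and Cd93 (0.45), both endothelial surface glycoproteins, against a median of 2.00 over all genes tested. Cd34 read 10.41 to 11.12 in BEC and 6.91 to 7.40 in LEC. For Plvap they were Ccdc28b (0.88) and Fbln2 (1.05, the matrix protein fibulin 2), against a median of 3.78, and both shared the low value of LEC replicate 1, at 1.37 and 1.33. For Cav1 they were Lamb1 (0.13) and G3bp1 (0.15), for Ehd2 Aldh2 and Fxyd5 (0.14 each), and for Cav2 Acer3 (0.28) and Snx3 (0.32). Acer3 and Snx3 shared the high value of BEC replicate 2 with Cav2, at 6.82 and 10.46.

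The cell types were checked against their markers. Among these, Pecam1 (CD31), Pdpn (podoplanin) and Ptprc (CD45) encode targets of the sort antibodies and are not independent of the sort. The 6 shared endothelial markers were above background on all 8 arrays, with means of 11.26 to 11.94 in BEC and 9.97 to 10.84 in LEC, although 2 of the 6, Cdh5 and Esam, were called lower in LEC (limma, -1.18 and -3.55, adjusted p = 0.0252 and 2.37e-04). The means of 6 lymphatic markers were 4.55 to 5.87 in BEC and 12.55 to 13.26 in LEC, with 1 to 6 of the 6 above background on each BEC array. Flt4, one of them, was bright in both cell types, at 10.73 to 11.42 in BEC and 13.16 to 13.81 in LEC. Caveola genes are also high in smooth muscle, pericytes, fibroblasts and adipocytes. The means of 9 smooth muscle and pericyte genes were 4.62 to 5.83 in BEC and 3.34 to 5.31 in LEC, with Cnn1 and Des above background on 2 of 8 arrays each, but Rgs5 (9.04 to 10.04 against -0.97 to 5.55) and Acta2 (6.45 to 7.89 against 3.39 to 5.88) were lower in each LEC array than in any BEC array, as were Plvap and Ehd4. Other genes of that list had the opposite sign: Pdgfrb (2.54 to 3.80 in BEC and 3.46 to 6.16 in LEC) was higher in LEC in 4 of 4 mice, and Kcnj8 (5.53 to 8.15 and 6.96 to 10.30), above background on all 8 arrays, in 3 of 4. Of the 6 tested genes of the list, Rgs5 was the one called (limma, lower in LEC, adjusted p = 0.00849). Fibroblast genes had means of 9.08 and 8.14 on LEC replicates 2 and 4 and 3.52 to 5.16 on the other 6 arrays. Epithelial genes had means of 10.13, 8.74 and 9.13 on BEC replicates 3 and 4 and LEC replicate 3, and 3.61 to 5.03 on the other 5. The 3 adipocyte genes with a named probe set had means of 2.62 to 5.27 in BEC and 1.80 to 3.70 in LEC, and 6 leukocyte genes had means of 1.91 to 4.61 and 3.33 to 4.78. Without the 3 arrays bright for epithelial genes the difference was -3.39 for Ehd4 (adjusted p = 0.0127) and -6.73 for Plvap, which then missed the threshold (adjusted p = 0.0636); without the 2 arrays bright for fibroblast genes they were -3.31 (adjusted p = 0.00231) and -7.66 (adjusted p = 0.00470). The part of pericyte RNA in these differences was not tested.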

How the data were processed

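The deposited table holds log2 signals of 45101 probe sets on 8 arrays. Per the submitters' processing notes, signals were made with MAS5 (no version given). The arrays share 1 scale, since unlogged signals gave a 2% trimmed mean of 100.04 on all 8. Values were used as deposited, with no pseudocount.

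The 64 control probe sets were left out of the tests. Gene names came from the platform annotation, updated through gene numbers to RefSeq symbols. A gene was represented by its brightest probe set on average, and was tested if that probe set passed the 40th percentile on 4 or more of the 8 arrays. This left 13259 genes. They were tested in limma (version 3.58.1, R 4.3.3; cell type as the only term, intensity trend), with two-sided p-values adjusted by Benjamini-Hochberg. All 28840 probe sets past the same filter were fitted in a second model. Differences are LEC minus BEC. Errors beside differences are standard errors of the fit.

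The background level of an array is the 95th percentile of 27 Bacillus subtilis control probe sets (3.43 to 4.88). A ratio is "at least" where an array of the dimmer group lay under it.

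LEC and BEC are animal-matched, per the labels. The correlation of same-mouse deviations was 0.142, 0.0776, 0.181 and 0.0510 for mice 1 to 4. The script was tested on simulated data. The number of arrays limits the precision.

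Genes and lists were chosen with earlier results of these data known. Named are all genes under the rule, every called gene of the lists, Cavin1 to Cavin3, and the 2 genes nearest in pattern to each. Other list genes were named after their values were seen. Alternatives were probe set choice, filters, scalings, background floor, trend, mouse block and left-out arrays. Leaving out the arrays bright for epithelial or fibroblast genes, and equal hybridisation controls, were chosen after seeing the data.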

Additional observations from a re-analysis of the deposited data

Results flagged for a closer look

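Among 30 sets of 4 arrays (15 named genes in each cell type), 3 had 1 array whose gap to its nearest neighbour passed Dixon's 95% critical value, as a share of the whole range, which chance passes in about 1 of 20 sets. Plvap was 1.62 on LEC replicate 1, with a gap of 0.940 of a range of 6.19 log2 units. Plvap was also 12.72 on BEC replicate 1, where the gap was 0.932 of a range of 0.73. Cavin2 was 12.64 on LEC replicate 1, with a gap of 0.935 of a range of only 0.31.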

How the results depend on the processing

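Each of the 5 genes was recomputed under 20 alternatives. The differences of Cav1 (-0.65 to -0.17), Cav2 (-0.10 being the value nearest 0) and Ehd2 (-1.11 to -0.25) kept their sign and were called under none of them, and Ehd4 (-3.61 to -3.10) was called under all 20. Plvap (-7.66 to -4.62) was called under 19 and lost its call without the arrays bright for epithelial genes (-6.73, adjusted p = 0.0636), a setting with 3 fewer arrays. Leaving out 1 array gave -0.38 to -0.17 for Cav1, -0.90 to -0.10 for Cav2, -6.68 to -4.62 for Plvap, -0.61 to -0.25 for Ehd2 and -3.41 to -3.10 for Ehd4. Blocking on the replicate number (the mouse) gave Plvap an adjusted p of 0.0145 and Ehd4 one of 0.00199, and the block gave 2 list genes higher in LEC in place of 1; among the 15 genes recomputed it changed no other call than that of Pacsin3 (2.68, adjusted p = 0.0494).

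List genes called higher (1 as reported) numbered 2 with the median of a gene's probe sets, with values raised to background and with the replicate block, 3 with the stricter filter, and 0 with equal array medians, with no intensity trend, with equal hybridisation controls and without the arrays bright for epithelial or for fibroblast genes. Leaving out 1 array gave 0 to 1 higher and 3 to 5 lower, and 2 were lower (4 as reported) without the arrays bright for epithelial genes. Over all genes, 234 higher became 123 with equal hybridisation controls, 112 without the epithelial and 88 without the fibroblast arrays, and 306 lower became 104 without the epithelial arrays. Equal array medians gave 162 and 336, and leaving out 1 array 156 to 227 and 180 to 329. Cavin3 turned to 0.09 without BEC replicate 1. Where a call was lost on fewer arrays the smaller sample is part of the setting; otherwise the cause was not tested. Signals near background limit the ratios of Plvap, Cd36, Scarb1 and Ehd3, and those of the dimmer probe sets of Pacsin3.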

Other observations

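Over the 6 lists the groups did not overlap at 14 of 52 genes, beside 10.4% of all genes tested, and 9 of these 14 were not called. They were named after their values were seen. LEC was lower at Kdr, at Insr (the insulin receptor, 8.68 to 9.32 in BEC and 6.01 to 8.37 in LEC), at Bmpr2 (a BMP receptor, 10.71 to 11.32 and 9.38 to 10.42), at its signalling partner Acvrl1 and at Epn2 (an epsin of coated pits, 8.25 to 8.99 and 6.32 to 8.04). LEC was higher at Cavin2, Pacsin3, Cldn5 and Rab11a. The adjusted p of these genes lay between 0.0608 and 0.221 in limma, on the chosen probe set of each. Other probe sets of Acvrl1 and Pacsin3 were called. The groups overlapped on every other probe set of Insr, Epn2, Cavin2 and Rab11a. For Bmpr2 they overlapped on the dim probe set 1441652_at but not on 1419616_at. The latter read 9.35 to 10.11 in BEC and 7.71 to 9.25 in LEC and was not called (limma over probe sets, adjusted p = 0.219).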
